A study of Mus musculus with 3 samples.

Results

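The genes described here are 8 members of the voltage-gated sodium channel family in adult mouse lung endothelial cells (ECs): the pore-forming alpha subunit genes *Scn7a*, *Scn1a*, *Scn3a*, *Scn8a* and *Scn9a*, and the accessory beta subunit genes *Scn2b*, *Scn3b* and *Scn4b*. All 8 were found by symbol among the 24346 genes of the deposited table. The set was chosen on measured values, namely the high level of *Scn7a* and its differences between libraries, so these are given as a description and carry no test. The study compared ECs of kidney, lung, liver and heart over development, and the 3 libraries used here (S38, S44 and S52) are the adult lung ECs, a single group. They came from wild type C57BL/6J mice, which the study's methods give as males of 6 to 8 weeks. The cells were labelled with an antibody to VE-cadherin injected into the circulation and were sorted, freshly isolated, as positive for CD31 and negative for CD45 and podoplanin. The labels do not say whether each library is a separate mouse or a pool, so the spread between libraries may be partly technical, and S38, S44 and S52 are names without an order.

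Voltage-gated sodium channels consist of an alpha subunit, which forms the sodium-selective pore, and beta subunits, single-pass membrane proteins with an immunoglobulin domain that adjust gating and surface expression and act in cell adhesion. They are best known for the action potential of neurons and muscle. *Scn7a* encodes the atypical alpha subunit Nax, which is not opened by voltage in the usual way and is known as a sensor of extracellular sodium in glial cells of the brain, and its transcript is also known from Schwann cells and lung.

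Values are FPKM, fragments per kilobase of gene and per 1000000 fragments, a scale per length on which genes can be compared. Genes averaging 1 FPKM or more over the libraries are called detected. The step between low values put the libraries at an estimated 38000000 fragments for S38, 38800000 for S44 and 33900000 for S52. All 8 endothelial marker genes were detected, against 48.3% of all genes, with a summed level of 4447 to 5290 FPKM. S52 stood apart from the others in genes of other cell types: 4 platelet genes summed to 1692 (S38), 1345 (S44) and 37.96 FPKM (S52), and 5 alveolar type 2 genes to 3756, 3156 and 760 FPKM in the same order. The highest and lowest libraries were over 2-fold apart for 20.1% of the 11770 detected genes, and for 5.06% without S52.

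*Scn7a* lies at chr2:66673425-66784914 of GRCm38 (mm10), on the minus strand, with 25 exons in a single basic GENCODE M21 transcript of 7338 bp. Because the sodium channel alpha subunits are close paralogues, the transcripts were searched for windows of the read length, 51 bases. None of the 7288 windows of *Scn7a* occurs in a transcript of another gene, so an exactly matching read could be assigned to *Scn7a* alone.

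The 5650 windows of *Scn3b* (chr9:40269217-40291618, plus strand) were likewise absent from other genes, as were those of *Scn4b*. Other members do share sequence: 795 of the 12501 windows of *Scn3a* (6.36%), 533 of the 13006 of *Scn9a* (4.10%) and 445 of the 11335 of *Scn1a* (3.93%) recur in other genes, mostly in each other and in *Scn2a*. In *Scn8a* and *Scn2b* the shares were 0.0312% and 0.946%. The low values of *Scn1a*, *Scn3a* and *Scn9a* are therefore uncertain as to which of these genes a few fragments came from.

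*Scn7a* was at 162 (S38), 197 (S44) and 298 FPKM (S52). S52 was the highest and the other libraries lay closer together, and the mean was 219 ± 70.8 FPKM (SD, n = 3 libraries). This mean ranked 439 among all genes, above 98.2% of them, with ranks of 516 in S38, 467 in S44 and 306 in S52. On the log2(FPKM + 1) scale the difference to S38 was 0.28 in S44 and 0.88 in S52, while the median over the detected genes was -0.033 and -0.083. If all fragments came from the annotated transcript, the values stand for an estimated 44203, 54919 and 72699 fragments, with a counting error of at most 0.476%, which covers counting only. The order of S38 and S44 depended on scaling. With each library rescaled to a sum of 1000000, *Scn7a* was at 140 in S38, 123 in S44 and 210 in S52. Relative to *Pecam1*, which encodes the sorted antigen CD31, the level of *Scn7a* came to 14.4% (S38), 16.2% (S44) and 25.6% (S52), and relative to *Cdh5*, which encodes VE-cadherin, it was 18.5%, 20.2% and 32.8%. The 8 endothelial markers did not move together. Highest in S52 were 2 of them, *Emcn* at 156 (S38), 181 (S44) and 267 FPKM (S52) and *Erg* at 59.2, 43.1 and 84.8 FPKM. *Kdr* and *Cldn5* were lowest in S52, at 237 and 1029 FPKM. Of all detected genes, 33.9% were highest in S52.

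*Scn3b*, which encodes a beta subunit that associates with alpha subunits without a covalent bond, was the only other detected member. It was at 36.1 (S38), 53.1 (S44) and 114 FPKM (S52), with a mean of 67.7 ± 41.0 (SD, n = 3). The mean ranked 1285 among all genes and was 44.6 FPKM without S52. S52 was 3.16-fold above S38, a difference of 1.63 on the log2(FPKM + 1) scale, larger than that of 99.5% of the detected genes, whereas the difference of *Scn7a* was larger than that of 97.2%. The levels of *Scn7a* and *Scn3b* did not overlap, since the lowest value of *Scn7a* was above the highest of *Scn3b*. *Scn3b* was at 22.3% of the level of *Scn7a* in S38, 26.9% in S44 and 38.2% in S52, so the ratio of the genes was not fixed over the libraries.

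**Figure D1:**
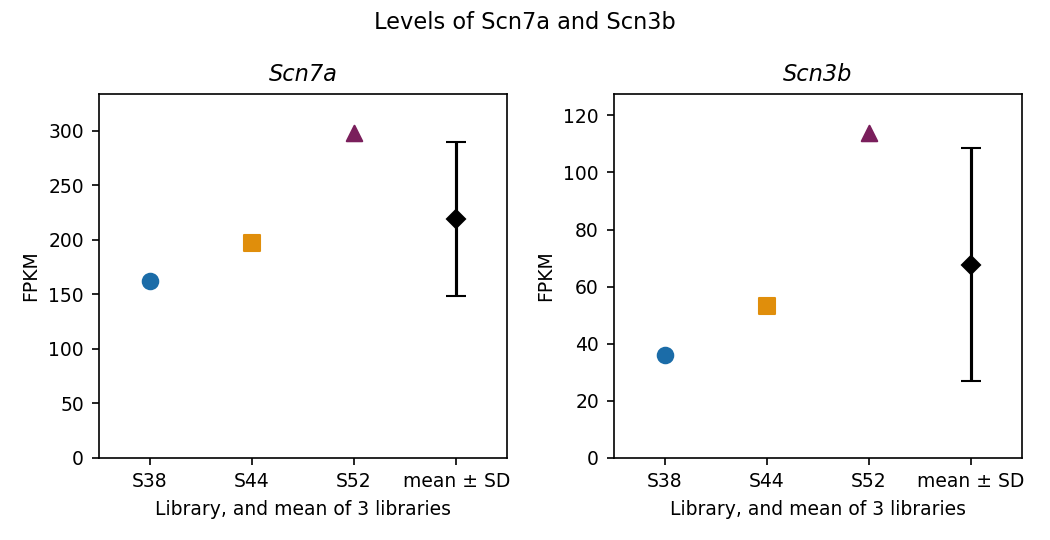
Levels of Scn7a and Scn3b in FPKM (vertical axes, starting at 0) in the libraries S38, S44 and S52, with the mean and SD of the 3 libraries as a diamond with bars. For both genes S52 is the highest, at 298 and 114 FPKM, and as deposited S38 is the lowest, at 162 and 36.1 FPKM, whereas S44 is the lowest for Scn7a with each library rescaled to a sum of 1000000.

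Of the 8 members, 2 were detected, against 48.3% of all genes. As deposited, both were lowest in S38 and highest in S52, an order that *Scn7a* was chosen for and that 16.0% of the detected genes had; rescaled to equal sums, *Scn7a* lost it and *Scn3b* did not. The libraries of *Scn3b* were over 2-fold apart, as those of 20.1% of the detected genes were, and its difference between S52 and S38 on the log2(FPKM + 1) scale was above 1, as it was for 1.89% of them.

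The remaining 4 alpha subunit members were each below 1 FPKM in every library. *Scn3a*, a channel of embryonic neurons and endocrine cells, was at 0.717 (S38), 0.312 (S44) and 0.894 FPKM (S52). *Scn8a*, which encodes the main channel of mature nodes of Ranvier, was at 0.161 and 0.106 FPKM in S38 and S52 and was listed at 0 in S44. *Scn9a*, a channel of pain-sensing neurons, was at 0.0218 and 0.0182 FPKM in S38 and S52 and was also listed at 0 in S44. *Scn1a*, a channel of inhibitory neurons, was listed at 0 in all 3 libraries, and at the estimated depth the limit that a count of 0 allows, 3 fragments by counting error only, would be 0.00960, 0.00940 and 0.0107 FPKM of its longest transcript. Thus a single alpha subunit member was above the detection threshold, and *Scn3a* was the next alpha subunit gene in level.

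The other beta subunit members were below 0.1 FPKM in every library. *Scn2b*, which encodes a subunit linked to the alpha subunit by a disulfide bond, was at 0.0777 (S38), 0.0290 (S44) and 0.00667 FPKM (S52), which correspond to an estimated 13.3, 5.06 and 1.02 fragments of the longest transcript. *Scn4b*, another disulfide-linked subunit, was at 0.00644 FPKM in S38, or an estimated 1.18 fragments, and was listed at 0 in S44 and S52. In the order of means, *Scn7a*, *Scn3b*, *Scn3a* and *Scn8a* had values that did not overlap between neighbours, whereas *Scn8a* and *Scn2b*, *Scn2b* and *Scn9a*, *Scn9a* and *Scn4b*, and *Scn4b* and *Scn1a* overlapped and could not be ordered beyond their spread.

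**Figure D2:**
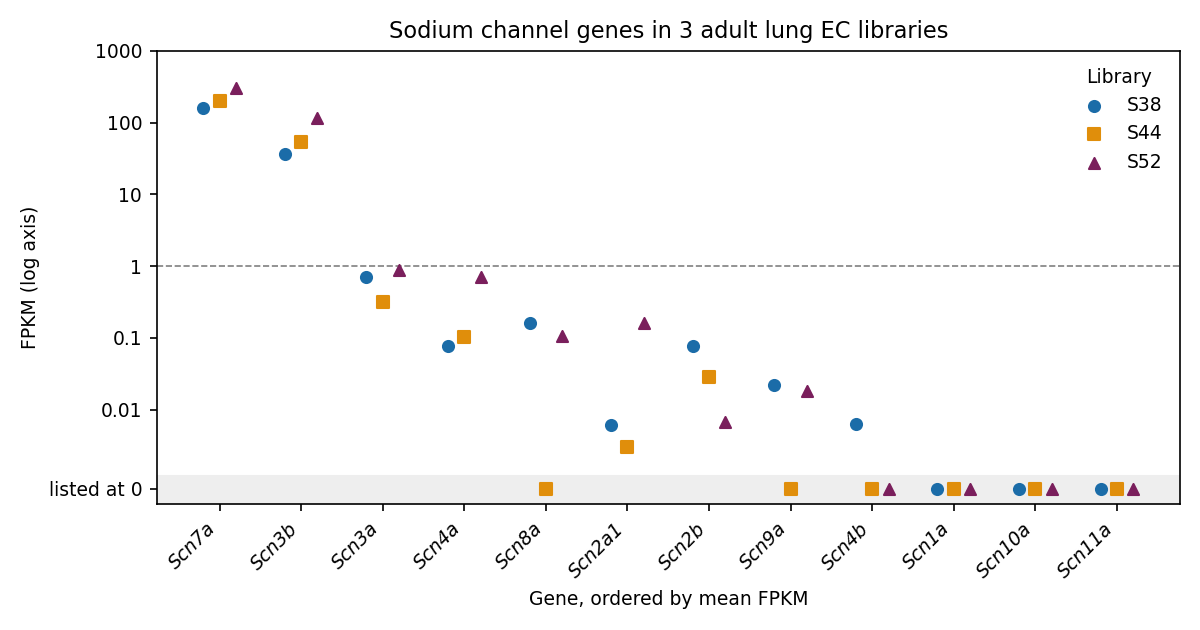
FPKM on a log axis (vertical) of 12 alpha and beta subunit genes, ordered by mean, in the 3 libraries; symbols in the grey band are values listed at 0 and the dashed line marks 1 FPKM. Scn7a and Scn3b lie above the line in all 3 libraries, and the other 10 genes shown lie below it.

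Other genes of the family were looked up as well. The skeletal muscle channel gene *Scn4a* was highest in S52, at 0.702 FPKM against 0.0776 in S38 and 0.103 in S44, and so was *Scn2a*, listed under its older symbol *Scn2a1*, at 0.162 FPKM against 0.00617 and 0.00299. *Scn10a* and *Scn11a*, channels of sensory neurons, were listed at 0 in all 3 libraries.

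*Scn7a* sits at the end of a cluster of sodium channel genes on chromosome 2, in the order *Scn3a*, *Scn2a*, *Scn1a*, *Scn9a* and *Scn7a*, spanning 1.33 Mb. Its neighbour *Scn9a*, on the same strand, ends 38.5 kb away and was at most at 0.0218 FPKM. Among 15 annotated genes around the cluster that are in the table, microRNA genes left aside, 4 were detected: *Scn7a*, *Grb14* at 20.8 to 36.1 FPKM, *Cobll1* at 7.10 to 7.94 FPKM and *Ttc21b* at 3.33 to 4.68 FPKM. The share detected among all genes was 48.3%. The lncRNA gene *Gm1322* and *Xirp2*, the nearest genes of the table on the other side of *Scn7a*, were listed at 0 in all 3 libraries. No annotated gene overlaps *Scn7a*. *Gm13629*, an antisense gene that shares 180 exonic bases with *Scn9a*, was listed at 0 throughout, and since the libraries carry no strand information, fragments of the pair could not be told apart.

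**Figure D3:**
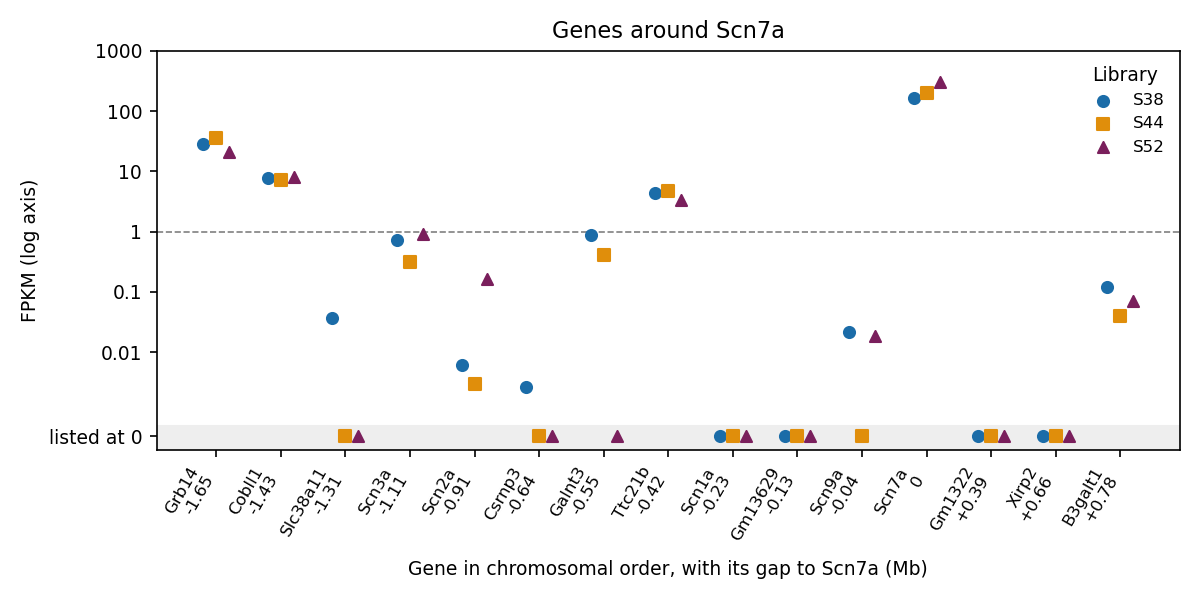
FPKM on a log axis (vertical) of 15 genes around Scn7a in chromosomal order, each labelled with its gap to Scn7a in Mb; symbols in the grey band are values listed at 0. Scn7a is at 162 to 298 FPKM between neighbours at or near 0, and the other 3 genes above the dashed line at 1 FPKM lie outside the run from Scn1a to Xirp2.

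The sequences before the starts of *Scn7a* and *Scn1a* are shown because the genes lie on the same strand of this cluster at the upper and lower ends of the levels. Each is 250 bases that end at the RefSeq start, 5′ to 3′ on the minus strand of GRCm38.p6, chr2:66784911-66785160 for *Scn7a* and chr2:66440838-66441087 for *Scn1a*. Capitals mark GGAA on either strand, the core letters bound by ETS factors, a family with many endothelial members.

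Scn7a: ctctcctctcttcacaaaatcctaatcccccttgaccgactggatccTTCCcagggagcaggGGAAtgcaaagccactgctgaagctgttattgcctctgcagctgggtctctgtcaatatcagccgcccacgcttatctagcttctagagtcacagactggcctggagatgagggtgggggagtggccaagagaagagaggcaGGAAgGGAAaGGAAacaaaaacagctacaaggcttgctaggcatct

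Scn1a: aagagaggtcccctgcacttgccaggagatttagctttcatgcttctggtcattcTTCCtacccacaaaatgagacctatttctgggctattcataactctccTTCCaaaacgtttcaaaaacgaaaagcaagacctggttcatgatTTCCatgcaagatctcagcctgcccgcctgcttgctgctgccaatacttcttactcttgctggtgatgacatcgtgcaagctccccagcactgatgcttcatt

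The *Scn7a* window holds GGAA, read on both strands, 5 times and the *Scn1a* window 3 times. The median over 32851 windows of the same length is 3, and 93.4% of them hold it at least once. Neither window holds TATAAA, which 12.4% of all windows do, and GGGCGG, held by 32.7% of all windows, occurs once before *Scn7a* and not before *Scn1a*. CG dinucleotides number 3 and 4, against a median of 6. Of the 8 members, 6 have an entry in the promoter table, and *Scn3a* and *Scn3b* have none. The windows of *Scn9a* and *Scn2b*, both below 0.1 FPKM in every library, also hold GGAA 5 times each. It occurs 2 times before *Scn4b*, and 0 and 4 times in the windows of *Scn8a*.

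Among 138 genes of ion channel pores taken by symbol (sodium, calcium, potassium, cyclic nucleotide, TRP, polycystin, two-pore, mucolipin and Piezo channels), *Scn7a* had the highest level in each library. The next was *Mcoln1*, a channel of lysosomes, at 39.5 ± 3.93 FPKM, followed by the mechanosensitive channel gene *Piezo1* at 29.9 ± 1.76, the potassium channel gene *Kcnq1* at 27.0 ± 2.03 and the endolysosomal channel gene *Tpcn1* at 23.0 ± 1.35 FPKM (SD, n = 3 for each). *Scn7a* was 3.71-fold above *Mcoln1* in S38, 5.07-fold in S44 and 8.32-fold in S52. It made up 46.6% of the summed mean level of the 138 genes, of which 25 were detected, against 48.3% of all genes. The list does not cover all channels. Chloride channel genes and the epithelial sodium channel genes, *Scnn1a* at a mean of 3.64 FPKM among them, are not in it. The values of *Mcoln1*, *Piezo1*, *Kcnq1* and *Tpcn1* varied less between libraries than those of *Scn7a*, with differences between S52 and S38 of -0.28 to 0.17 on the log2(FPKM + 1) scale.

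**Figure D4:**
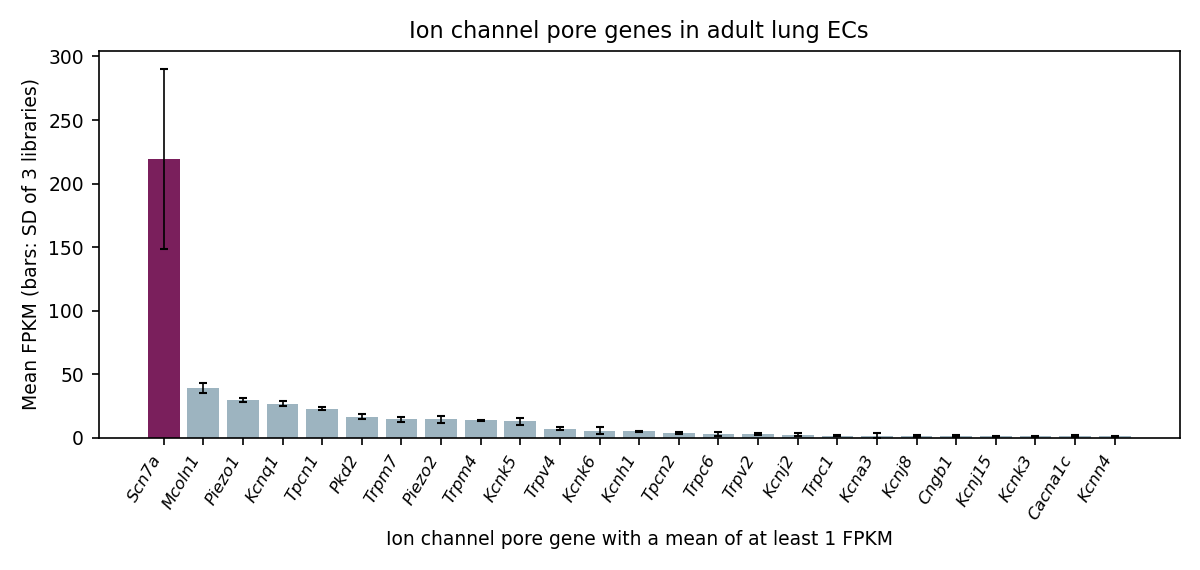
Mean FPKM (bars from 0, with the SD of 3 libraries) of the 25 detected ion channel pore genes. Scn7a, at 219 FPKM, stands above Mcoln1, at 39.5 FPKM, and all others.

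Of 14 genes whose products bind or modify sodium channels, 9 were detected as transcripts, against 48.3% of all genes. Fibroblast growth factor homologous factors bind the tail of alpha subunits, and of their 4 genes *Fgf11* was detected, at 2.66 ± 0.879 FPKM (SD, n = 3). The ankyrin genes *Ank2* and *Ank3*, which anchor channels at the membrane, had means of 0.319 and 0.589 FPKM. *Nedd4*, which encodes a ubiquitin ligase that removes channels from the surface, was at 136 (S38), 134 (S44) and 174 FPKM (S52), and its relative *Nedd4l* at 8.82, 6.80 and 12.3 FPKM. Of the other sodium channels, *Scnn1a* of the epithelial sodium channel was at 4.51, 1.78 and 4.65 FPKM, while 6 of the 7 genes, the sodium leak channel gene *Nalcn* among them, had means below 1 FPKM.

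The sodium pump, which returns sodium to the outside, has beta chains that carry its catalytic chain to the membrane. The beta chain gene *Atp1b3* was at 149 ± 1.59 FPKM (SD, n = 3) and varied little, whereas *Atp1b1* was at 10.9 (S38), 6.43 (S44) and 2.17 FPKM (S52). The kinase gene *Sgk1*, a regulator of sodium transport, was at 213, 182 and 385 FPKM, highest in S52 and lowest in S44. Of the 15 genes of sodium transport 13 were detected, against 48.3% of all genes. Of these 13, 7 were highest in S52, as were 33.9% of all detected genes. The median difference of the 13 between S52 and S38 was 0.12 on the log2(FPKM + 1) scale.

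Genes tied to the sensing of sodium by Nax in the nervous system were also looked up. *Ednrb*, the endothelin B receptor gene and a marker of lung aerocytes, was at 143 (S38), 155 (S44) and 75.3 FPKM (S52), lowest in S52. *Edn3*, the gene of its ligand endothelin-3, was at 0.793, 0.544 and 0.896 FPKM. *Ldha* and *Slc16a1*, which make and carry lactate, had means of 160 and 2.47 FPKM.

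The levels of other cell types' markers were set beside *Scn7a* and *Scn3b*. In bulk samples fewer cells of a type and less RNA per cell cannot be told apart. The share detected among all genes, to set beside the counts below, was 48.3%. Schwann and glial genes were far below *Scn7a*: 2 of 6 were detected, the 6 summed to 2.44 to 4.16 FPKM, *Foxd3* was listed at 0 in all libraries and *Sox10* was at most at 0.124 FPKM. Neuronal genes summed to 3.62 to 7.25 FPKM, with 2 of 5 detected, and neuroendocrine genes to 0.826 to 3.34 FPKM, with 1 of 4 detected. Cardiomyocyte genes, which muscle sleeves of the pulmonary veins express in mice, summed to 43.6 (S38), 17.2 (S44) and 1.86 FPKM (S52). In S52 *Myh6*, *Myl7* and *Ryr2* were listed at 0, whereas *Tnnt2* and *Nppa* were at 0.854 and 1.01 FPKM. Fibroblast genes, 5 of 5 detected, summed to 75.7, 57.6 and 44.2 FPKM. Mural genes, 5 of 5 detected, summed to 131, 73.1 and 142 FPKM, and 3 of them were highest in S52. The share of all detected genes that were highest in S52 was 33.9%. The part of these cell types in the levels of *Scn7a* and *Scn3b* was not tested.

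Markers of endothelial subtypes differed between libraries. The 5 general capillary genes summed to 1856 (S38), 2064 (S44) and 2315 FPKM (S52), with 3 of 5 highest in S52. Of all detected genes, 33.9% were highest in S52. The 5 aerocyte genes summed to 1327, 1412 and 811 FPKM, with none highest in S52. The 5 large vessel genes summed to 439, 498 and 383 FPKM. Only 1 of these 5 was highest in S52, *Gja4*, at 58.1 (S38), 88.7 (S44) and 112 FPKM (S52). The 4 lymphatic genes summed to 52.6, 51.9 and 20.6 FPKM, with 1 of 4, *Prox1* at 0.598 FPKM, highest in S52. The part of these subtypes in the differences of *Scn7a* and *Scn3b* was not tested. Of the remaining lists, airway genes summed to 2767, 2303 and 401 FPKM, leukocyte genes to 1061, 790 and 169 FPKM, alveolar type 1 genes to 348, 373 and 273 FPKM and mesothelial genes to at most 5.83 FPKM. The leukocyte sums were nearly all *Lyz2*, at 1047, 780 and 166 FPKM. The other leukocyte genes were at most at 8.70 FPKM, and *Ptprc* was at 4.30, 2.06 and 0.434 FPKM.

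**Figure D5:**
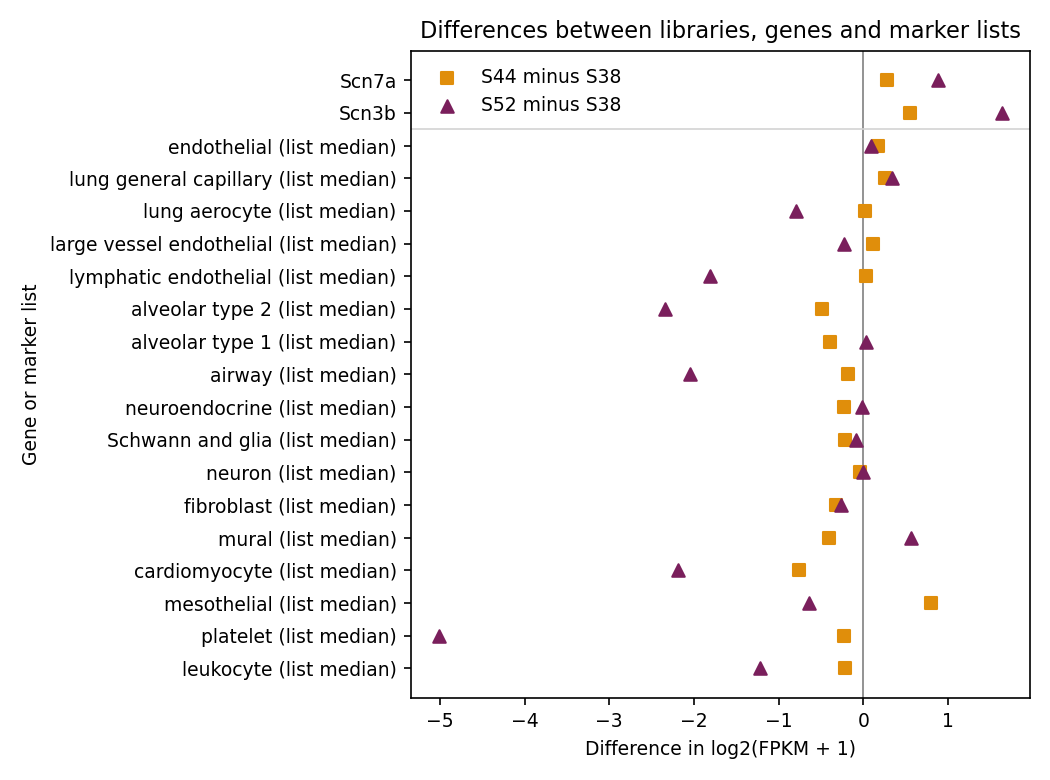
Differences in log2(FPKM + 1) between libraries (horizontal) for Scn7a, Scn3b and the medians of 17 marker lists, as S44 minus S38 (squares) and S52 minus S38 (triangles). Scn7a and Scn3b lie at 0.88 and 1.63 in S52, above every list median, and the platelet median lies at -5.01.

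The genes whose pattern over the 3 libraries was most like that of *Scn7a* were ranked by the distance between log2(FPKM + 1) values centred on each gene, among the 6268 other genes averaging 10 FPKM or more. The nearest was *Btbd2*, at 12.2 (S38), 15.2 (S44) and 23.2 FPKM (S52), a distance of 0.016. Others among the 10 nearest were *Dnajb1*, *Cish*, *Faim*, *Rpl13a*, *Spty2d1*, *Rpl13*, *2410006H16Rik* and *Sorbs3*, at distances up to 0.058. *Rpl13a* and *Rpl13* encode ribosomal proteins. *Scn3b* lay at 0.54, with 1965 genes nearer. Its differences to S38, 0.55 in S44 and 1.63 in S52, had the same direction as those of *Scn7a*, 0.28 and 0.88, but were larger. Centring removes the level of a gene, and the distance grows with the size of the differences between libraries as well as with their order. With 3 libraries these distances are a description only.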

How the data were processed

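Poly-A selected RNA of sorted adult lung ECs was sequenced without strand information as paired reads of 51 bases. The deposited table holds FPKM of each gene symbol, made by the authors on mm10, with 1 column per library. The submitters' processing notes name bcl2fastq 2.17, FastQC 0.11.5, Trimmomatic 0.36, TopHat2 2.1.0 and Cufflinks 2.2.1, with no role, whereas the paper describes counts from STAR and HTSeq. The gene annotation is not given in the sources used here, and FPKM of genes with several transcripts depends on it. All value columns were used (0 left out), with no rescaling in the main results.

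Means, SDs, ranks and counts used FPKM. Differences between libraries used log2(FPKM + 1), a pseudocount of 1 that understates changes of low genes. Because the labels hold 1 group, no test was run. Genes named are the 8 members, the family and partner lists, the 10 genes nearest to *Scn7a*, the 5 highest ion channel pore genes and chromosomal neighbours. Some results for genes of these lists are not reported here. Members and lists were chosen with earlier results of these data known. *Grb14*, *Cobll1* and *Ttc21b* were named as the detected genes around the cluster after their values were seen.

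Depth was estimated from 7077 genes with a single basic transcript: FPKM times length, less 150 to 160 bp, was scanned for the unit size at which low genes come out as whole fragments. This approach was picked with the values already in view and was tested on simulated data. Of the low values, 324 in S38, 412 in S44 and 207 in S52, 74.9% to 78.4% per library came within 0.15 of an integer. Evenly spread values would give 30% for a unit fixed in advance. The unit was instead searched for closeness to integers on the same values, so the share is no independent check. Positions are those of GENCODE M21 (GRCm38), and upstream sequences are from RefSeq (GRCm38.p6). Python 3.11.15, numpy 2.4.6 and pandas 2.3.3 were used. Alternatives were 3 rescalings of the libraries, pseudocounts of 0.1 and none, other minimum levels and leaving out each library.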

Additional observations from a re-analysis of the deposited data

How the results depend on the processing

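No paired analysis was possible because the libraries form 1 group. Without one library each, the mean of *Scn7a* ranged from 180 to 248 FPKM, its rank from 391 to 507 and the mean of *Scn3b* from 44.6 to 83.6 FPKM, and 2 members were detected each time. *Scn7a* was higher in S52 than in S38 under all 3 rescalings, with log2 differences of 0.58 to 0.87 against 0.88 as deposited, and *Scn3b* likewise, with 1.33 to 1.63. The difference between S44 and S38 of *Scn7a*, 0.28, reversed to -0.19 with each library rescaled to a sum of 1000000, an alternative for this value that was chosen after seeing the data. Short noncoding genes took 59.9% of that sum in S38, 70.4% in S44 and 66.9% in S52, and this rescaling also moved the median difference of detected genes between S52 and S38 from -0.083 to -0.34. With a minimum mean of 0.1 FPKM 3 members were detected, *Scn3a* being the third. The share of genes with over 2-fold differences was 34.5% with a minimum mean of 0.1 FPKM, 8.74% with 10 FPKM and 5.06% to 14.8% without one library each. Of the 10 genes nearest to *Scn7a*, 7 were among the nearest with a pseudocount of 0.1 and 5 with a minimum mean of 1 FPKM, where more genes compete. The difference between S52 and S38 has no value without S38 or without S52. Depth limits *Scn2b*, *Scn4b* and *Scn9a*, which rest on an estimated 13.3 fragments or fewer in each library.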

Other observations

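Among genes averaging 10 FPKM or more, the 10 whose pattern over the libraries was nearest to that of *Scn3b*, looked up after its values were seen, were *Gm10052*, *Cxcl10*, *Tfrc*, *Rpl26*, *Hsph1*, *Hbegf*, *9930111J21Rik1*, *Hspa2*, *Tnfaip3* and *Guk1*, at distances of 0.12 to 0.32. None of them is among the 10 nearest to *Scn7a*, an outcome that the distances fixed. Those 10 lie within 0.058 of *Scn7a*, and *Scn3b* lies 0.54 from it, so the lists could not share a gene. The chemokine gene *Cxcl10* was at 24.5 (S38), 40.6 (S44) and 78.1 FPKM (S52), the growth factor gene *Hbegf* at 43.4, 52.5 and 122 FPKM, the NF-kappaB inhibitor gene *Tnfaip3* at 31.9, 41.4 and 80.8 FPKM and the heat shock gene *Hsph1* at 16.5, 20.9 and 45.3 FPKM. Their selection fixed which library is highest. The match rests on 3 libraries of a single group and was not tested.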
